A study of Mus musculus with 4 samples.

Results

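Type I interferon-stimulated genes are described here in Hepa1-6, a hepatocellular carcinoma line of the mouse, after knockdown of the histone H3 lysine 9 methyltransferase Setdb1. The members are 49 genes taken by name from the known interferon response and found by their symbols among 54838 Ensembl genes measured by RNA sequencing. Each of the 49 symbols matched exactly 1 gene. The knockdown group (2 libraries, titles shSet) carried an shRNA against Setdb1 and is given the genotype Setdb1 knockdown. The control group (2 libraries, titles shNC) carried the NC shRNA and is given the genotype Setdb1 wild type, so both groups shared the cell line and the presence of an shRNA. The series' design text speaks of subclones, and the labels do not say how many clones or separate cultures stand behind the libraries. The spread that the p-values rest on is that of these 4 libraries and may be technical.

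Type I interferons are secreted proteins that cells release when they sense viral or misplaced nucleic acids. They bind the receptor chains Ifnar1 and Ifnar2, whose kinases Jak1 and Tyk2 activate STAT proteins. Stat2 and Irf9 are parts of the factor ISGF3, which binds the interferon-stimulated response element in the promoters of many interferon-stimulated genes. Their products degrade viral RNA, block viral entry and budding, attach the ubiquitin-like protein Isg15 to other proteins, and feed back on the pathway. Setdb1 is known for the silencing of retroelements, whose transcripts can be sensed as foreign, and the comparison shows how the interferon-stimulated genes stood in these cells with less Setdb1.

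Library depth was close to equal, with 19615440 and 19569013 expected counts in the knockdown libraries and 19600142 and 19513567 in the control libraries. Setdb1 itself stood at 10.97 and 8.665 CPM (the count relative to library size, scaled by the TMM method) in knockdown libraries, against 51.47 and 58.53 CPM in control libraries. It fell by 2.49 on the log2 scale (SE 0.182, edgeR quasi-likelihood test, adjusted p = 0.00015). Albumin, alpha-fetoprotein, transferrin and the keratins Krt8 and Krt18, markers of hepatocytes and hepatoma cells, each had at least 10006 counts in every library, while Apoa1 and Ttr had at most 7. Of 6 tested markers of this list albumin was called higher (edgeR adjusted p = 0.005634) and the transcription factor Hnf4a lower (adjusted p = 0.03017). The mitochondrial share of counts was 2.151% and 3.361% in knockdown libraries and 2.293% and 1.668% in control libraries. Of 10 immune cell markers, Cd3e, Clec4f and Itgax were at 0 in all 4 libraries and the leukocyte marker Ptprc had at most 4 counts. The summed immune list stood at 17.16 and 15.58 TPM (abundance corrected for transcript length) in knockdown libraries and at 10.69 and 9.74 TPM in control libraries. Most of it was the lysosomal gene Cd68, and 3 of the 10 markers passed the filter on low counts, of which 0 were called (edgeR adjusted p from 0.0561 to 0.08106) and all 3 had an unadjusted p under 0.05. The log2 fold changes of these 3 were 0.80 for Cd68, 1.52 for Csf1r and -1.73 for Lyz2. Lyz2 had 5 and 8 counts in knockdown libraries, against 24 and 20 counts in control libraries. It passed the filter only through the control libraries, so a value below 0 was favoured in advance. Of the untested markers, Adgre1 had 5 and 3 counts in knockdown libraries and 0 and 0 in control libraries. Itgam had 6 and 9 counts in knockdown libraries and 2 and 5 in control libraries, and Cd79a had at most 2 counts. The summed endothelial list stood at 0.9 and 0.45 TPM in knockdown libraries and at 0.21 and 0.18 TPM in control libraries. Its 1 tested marker, Pecam1, was not called (edgeR adjusted p = 0.05931). Pecam1 had 39 and 20 counts in knockdown libraries, against 9 and 7 in control libraries, and passed the filter only through the knockdown libraries. Cdh5, Kdr, Tek and Stab2 had at most 2 counts in any library, so the list total was mostly Pecam1. The fibroblast list, mostly Dcn, stood at 1377 and 1349 TPM with the knockdown and at 1230 and 1343 TPM in control libraries. Of its 3 tested markers 1 was called, the collagen gene Col1a1 (log2 fold change 2.17, edgeR adjusted p = 0.006523). Col1a1 had 60 and 79 counts in knockdown libraries, against 16 and 15 counts in control libraries. Col1a2 and Lum of the same list had at most 1 count in any library, and Reln had at most 6. The part of these transcripts in the results below was not tested, and in bulk RNA fewer cells that express a gene and less RNA per cell cannot be told apart.

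The interferon-stimulated genes were mostly present at low to moderate levels in both groups, and few of them passed the test. Of the 49 members, 37 passed the filter on low counts. Xaf1 and Parp12 rose with the knockdown, 0 fell and 35 were not called at an adjusted p under 0.05. That is 5.41% of the tested members, against 5.96% of all 12821 genes tested (4.20% higher and 1.76% lower), so the share of called members was near the background. At an unadjusted p under 0.05 there were 8 of 37 members (21.6%), against 21.3% of all genes. The log2 fold changes lay above 0 in 34 of 37 members (91.9%), against 49.5% of all genes, and their median was 0.236, against -0.005 over all genes. The members thus leaned upward by a small amount, as a description of the list. Both knockdown libraries were above both control libraries in 21 members (56.8%), against 26.4% of all genes, and below both in 0, against 25.2%. Oas3 is among the 34 and the 21, although it passed the filter only through the knockdown libraries. With a filter of 1 CPM in 2 libraries, which left Oas3 out, 33 of 36 members lay above 0. Rtp4 is among these 33, and it passed that filter only through the knockdown libraries. It had 1.224 and 1.032 CPM there, against 0.3592 and 0.9586 CPM in control libraries.

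**Figure D1:**
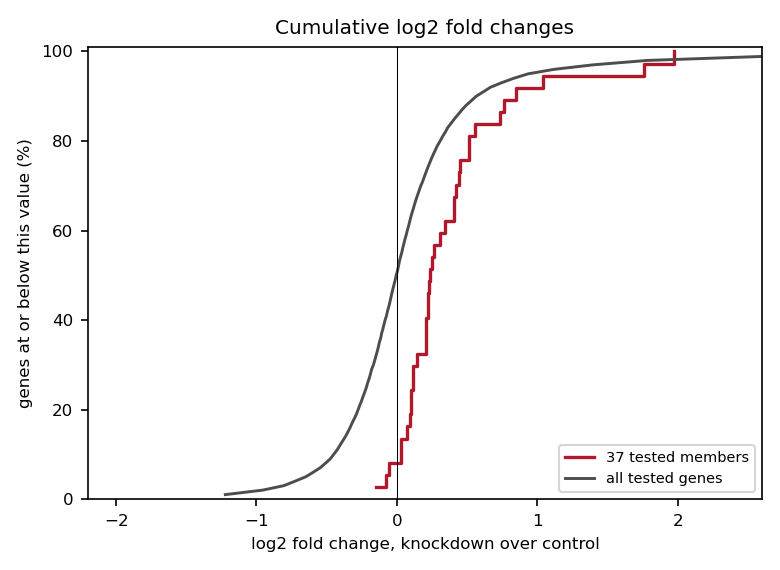
Cumulative distribution of the log2 fold change, knockdown over control, for the 37 tested members (red) and for all 12821 tested genes (grey). The members' curve starts at -0.148 and lies to the right of the other over most of its range, with a median of 0.236 against -0.005.

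The 2 control libraries differed from each other by about as much as the groups did. Relative to the control mean of each gene on log2(CPM + 0.1), the members' median was 0.324 in knockdown 1 and 0.244 in knockdown 2, and it was -0.126 in control 1 and 0.126 in control 2. Control 2 was higher than control 1 in 30 of 37 members with a median difference of 0.252, against 0.005 over all genes. Knockdown 1 was higher than knockdown 2 in 25 of 37 members, with a median difference of 0.122. The median log2 fold change of the members was 0.374 without control 2, with 37 of 37 above 0, and 0.206 without control 1, with 30 above 0. Without knockdown 1 the number above 0 was 28 of 37. Without control 2 the called members were 4, with Usp18 and Oas3 added to Xaf1 and Parp12.

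**Figure D2:**
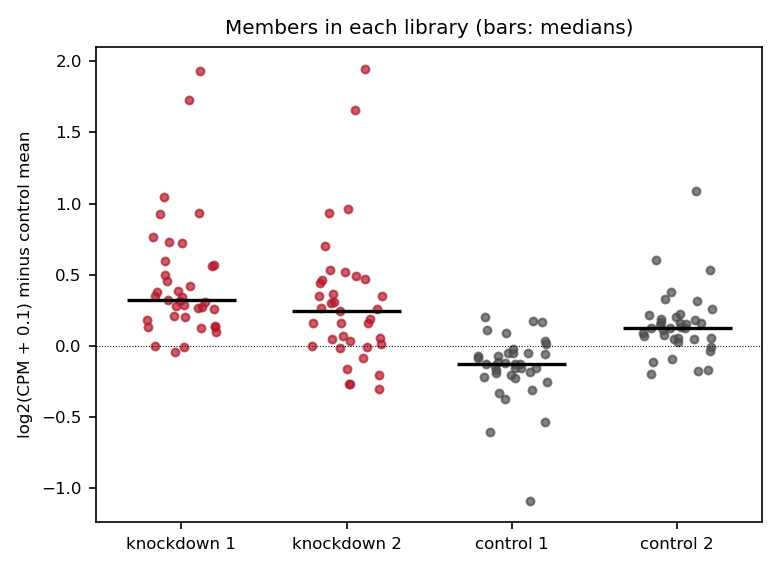
Each point is a tested member (37 per library), placed at its log2(CPM + 0.1) minus the mean of the 2 control libraries, and the bars are medians. The control values mirror each other by construction, and the medians run from 0.324 in knockdown 1 and 0.244 in knockdown 2 to -0.126 in control 1 and 0.126 in control 2.

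Xaf1, which encodes an antagonist of the inhibitor of apoptosis protein XIAP, had the largest change of the called members. It lies on chromosome 11 (72301629 to 72313733, plus strand, GRCm38). Xaf1 had 4.336 and 4.126 CPM in knockdown libraries, against 1.129 and 1.362 CPM in control libraries. The lowest knockdown library was thus about 3 times the highest control library, and the groups did not overlap. Its log2 fold change was 1.76 (SE 0.292, 95% interval 1.10 to 2.41, edgeR adjusted p = 0.008302). In raw terms this was 85 and 80 counts in the knockdown and 22 and 27 counts in the control libraries. On length-corrected scales the difference was smaller, 1.15 on log2(TPM + 1) and 1.36 on log2(TPM + 0.1). It was called on both with limma. At levels this low the added constant shrinks the difference too, apart from the length correction.

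Parp12, an ADP-ribosyltransferase with zinc fingers that bind RNA, was the other member called. It lies on chromosome 6 (39086410 to 39118349, minus strand). Parp12 had 41.78 and 49.36 CPM in knockdown libraries, against 24.37 and 26.18 CPM in control libraries. Its level was higher than that of Xaf1 in every library, also per length (18.84 ± 2.072 TPM against 8.005 ± 0.8415 TPM in knockdown cells, SD, n = 2). Its log2 fold change was 0.85 (SE 0.159, 95% interval 0.49 to 1.21, edgeR adjusted p = 0.01396). The call ended on both log2 TPM scales with limma, with an adjusted p of 0.08582 on log2(TPM + 1). Without a filter on low counts edgeR called 0 of all genes, so that the calls of Xaf1, Parp12 and Setdb1 ended there as well (3379 genes had an unadjusted p under 0.05).

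The promoters of Xaf1 and Parp12 are shown because these were the members called, beside that of Isg15, a member with the response element that was not called. These 3 were chosen after their values were seen. Each sequence holds the 250 bases before the RefSeq transcription start on the gene's own strand (GRCm38.p6), at chr11:72301379-72301628 on the plus strand for Xaf1, chr6:39118350-39118599 on the minus strand for Parp12 and chr4:156200819-156201068 on the minus strand for Isg15. Capitals mark the core of the interferon-stimulated response element.
Xaf1: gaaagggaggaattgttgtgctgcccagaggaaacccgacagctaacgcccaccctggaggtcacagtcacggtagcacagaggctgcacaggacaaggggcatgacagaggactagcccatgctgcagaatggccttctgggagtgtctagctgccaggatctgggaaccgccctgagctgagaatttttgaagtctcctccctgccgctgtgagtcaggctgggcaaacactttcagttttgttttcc
Parp12: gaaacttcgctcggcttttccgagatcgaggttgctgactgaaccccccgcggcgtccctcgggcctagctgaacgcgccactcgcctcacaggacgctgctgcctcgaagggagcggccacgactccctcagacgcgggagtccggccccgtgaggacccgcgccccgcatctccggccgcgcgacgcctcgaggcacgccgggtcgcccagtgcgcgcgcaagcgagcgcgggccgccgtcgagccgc
Isg15: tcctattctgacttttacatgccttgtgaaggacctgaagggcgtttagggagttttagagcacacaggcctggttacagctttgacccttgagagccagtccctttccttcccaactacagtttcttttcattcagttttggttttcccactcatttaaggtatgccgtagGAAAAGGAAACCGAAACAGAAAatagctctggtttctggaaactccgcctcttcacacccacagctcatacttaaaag

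The core was searched as GAAANNGAAA on both strands in windows of 300 bases, 250 before to 50 after the start. Of the 49 members 39 had at least 1 such window, and 14 of these (35.9%) held the core, against 3.99% of the 27025 genes with a window. The gamma-activated site, which STAT dimers bind, was searched as TTCNNNGAA and was found in 7 of 39 members (17.9%), against 9.55% of all genes. It is its own reverse complement, so a match was counted once, and in Bst2 and Ifitm3 it overlapped the core. Neither motif was in the windows of Xaf1 and Parp12, which says only that these letters are not in these windows. Isg15 held 3 overlapping cores, beginning 78, 72 and 66 bases before its start. Among tested members the median log2 fold change was 0.222 in the 10 genes with the core (0 called), 0.226 in the 20 with a window and no core (2 called) and 0.422 in the 7 without a window (0 called). The medians of genes with and without the core in their windows were thus nearly equal.

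Further cores are given for members whose levels ranged from near 0 to among the highest. Their likeness in the capitals was set by the letters searched, and members without a match are left out. The windows of 30 bases lie at chr19:34583397-34583426 for Ifit3, chr19:34607793-34607822 for Ifit3b, chr5:120907526-120907555 for Oas1a, chr5:120777715-120777744 for Oas3, chr8:71537580-71537609 for Bst2, chr16:10785597-10785626 for Socs1, chr10:128270266-128270295 for Stat2, chr12:26456553-26456582 for Rsad2, with Ifit3, Ifit3b and Stat2 on the plus strand and the others on the minus strand. Capitals mark the core, which reads in the reverse direction where it begins with T.
Ifit3: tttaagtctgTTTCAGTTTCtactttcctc
Ifit3b: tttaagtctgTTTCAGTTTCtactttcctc
Oas1a: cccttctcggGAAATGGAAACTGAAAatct
Oas3: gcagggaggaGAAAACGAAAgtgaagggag
Bst2: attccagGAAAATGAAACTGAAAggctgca
Socs1: cttgccgGAAAGAGAAACCGAAAgcggggg
Stat2: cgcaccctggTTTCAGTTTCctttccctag
Rsad2: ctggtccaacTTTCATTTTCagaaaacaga

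The windows of Ifit3 and Ifit3b, neighbouring gene copies, are the same over these 30 bases. Oas1a, Bst2 and Socs1 carry 2 overlapping cores, Oas3, Stat2 and Rsad2 a single one in the bases shown. Ifit3, Ifit3b and Rsad2 did not pass the filter on low counts, while Bst2 was among the most abundant members.

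**Figure D3:**
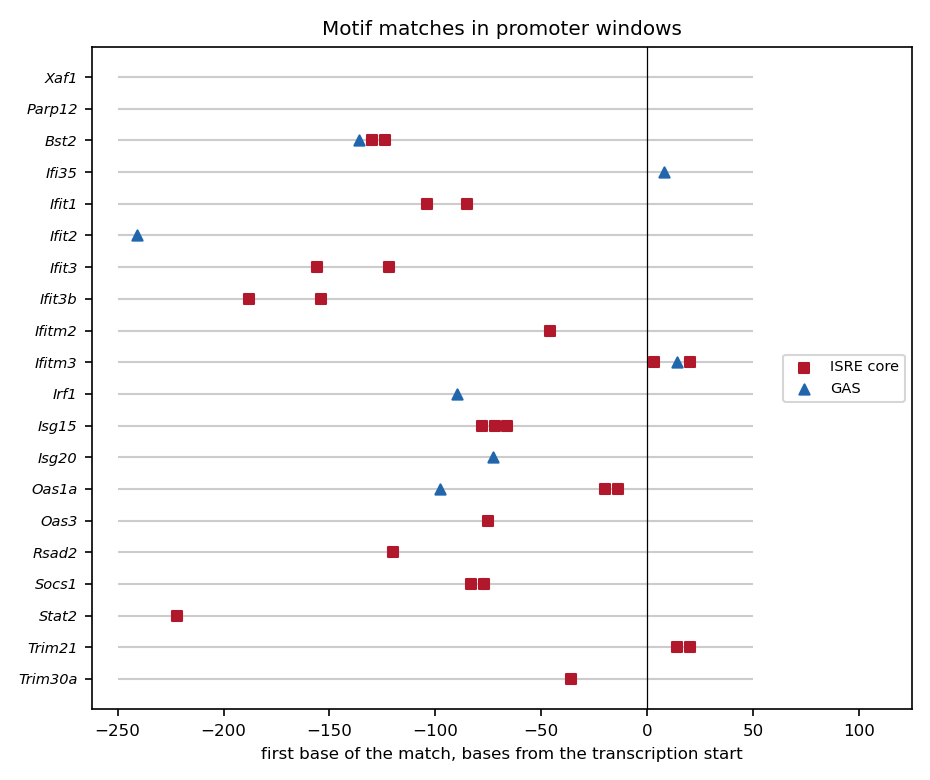
Positions of matches to the response element core (red squares, first base of each match) and the gamma-activated site (blue triangles) in the windows of 300 bases around the transcription start, for Xaf1, Parp12 and the 18 members with a match. The rows of Xaf1 and Parp12 are empty, and the 3 matches of Isg15 lie side by side.

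The signalling and transcription factor members did not pass the test in either direction (0 of 7, median log2 fold change 0.220, from -0.055 to 0.344). Irf9, the DNA-binding part of ISGF3, had 6.683 and 6.292 CPM in knockdown libraries, against 4.772 and 5.701 CPM in control libraries (adjusted p = 0.4799). Stat2 had 7.346 and 5.313 CPM in knockdown libraries, against 4.208 and 8.93 CPM in control libraries, so the control libraries enclosed the others. Irf7, the factor that amplifies interferon production, had 2.347 and 1.238 CPM with the knockdown, against 1.591 and 1.514 CPM in control libraries, and overlapped too. Irf1 had 55.96 and 39.25 CPM in knockdown libraries and 43.26 and 44.75 CPM in control libraries. Nmi and Ifi35, partner proteins induced by interferon, and Socs1, which blocks JAK kinases, had log2 fold changes of 0.344, 0.220 and 0.247. They were not called (edgeR adjusted p = 0.3585, 0.5091 and 0.6588). In each, both knockdown libraries were above both control libraries, as in 26.4% of all tested genes.

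Among effectors that bind or cut RNA, 6 of 10 members were tested and 0 were called, with a median of 0.102. Oas3, a synthase of the 2-5A signal that switches on RNase L, had 14 and 14 counts in knockdown libraries, against 0 and 7 counts in control libraries. The knockdown libraries were equal and the control libraries lower. Its log2 fold change of 1.97 (SE 0.769) did not pass (edgeR adjusted p = 0.1752). Oas3 passed the filter on low counts only through the knockdown libraries, so a value above 0 was favoured in advance. Without control 2 its log2 fold change was 6.82, but the remaining control library has no read. The synthase Oas1a has near-identical neighbouring copies and fractional counts in all 4 libraries, so its values are uncertain. It had 16.02 and 14.13 CPM in knockdown libraries and 13.29 and 15.03 CPM in control libraries. The related Oasl2 had 3.418 and 2.527 CPM with the knockdown, against 1.591 and 2.573 CPM in control libraries. Oasl1, which restrains Irf7 translation in mice, had 19.08 and 12.89 CPM in knockdown libraries and 13.96 and 17.41 CPM in control libraries. The exonuclease Isg20 and Ifit2 had log2 fold changes of 0.113 and -0.080, and their groups overlapped.

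The Ifit cluster shows how uneven detection was (chromosome 19, 34550694 to 34650009, 4 genes within 99.3 kb). Ifit2 had 89 and 90 counts in knockdown libraries, against 70 and 121 counts in control libraries. Its neighbours Ifit1, Ifit3 and Ifit3b, which bind foreign RNA ends or support that binding, had at most 2 counts in any library. In the Oas cluster on chromosome 5, Oas2 had 1 and 1 counts with the knockdown and 0 and 0 counts in control libraries.

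Membrane and metabolic effectors included the most abundant members, and 0 of 6 tested were called (median 0.234, from 0.206 to 0.766). Ifitm2, which hinders virus entry at endosomes, had 891.4 and 816.4 TPM in knockdown libraries, against 847.8 and 664.7 TPM in control libraries. Ifitm3, its neighbour on chromosome 7, had 509.2 and 380.0 TPM with the knockdown, against 349.6 and 409.4 TPM in control libraries. The 2 genes were ordered alike in every library, with Ifitm2 above Ifitm3, while Ifitm1 between them had 1 count in all 4 libraries together. Bst2 (tetherin), which holds budding virus on the cell surface, had 131.1 and 104.1 TPM in knockdown libraries, against 98.4 and 106.8 TPM in control libraries. On the CPM scale Bst2 had both knockdown libraries above both control libraries (56.52 and 45.34 against 41.72 and 44.75 CPM, adjusted p = 0.4336), by a margin under the spread within the knockdown pair. The chaperone Rtp4 had the largest log2 fold change here, 0.77 (SE 0.482, edgeR adjusted p = 0.4004). It had 24 and 20 counts in knockdown and 7 and 19 counts in control libraries, with fractional counts in 2 libraries. With the filter of 1 CPM Rtp4 passed only through the knockdown libraries, so a value above 0 was favoured there in advance. Samd9l, a translation inhibitor, and Cmpk2, a mitochondrial nucleotide kinase beside Rsad2, had log2 fold changes of 0.221 and 0.231.

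Of Isg15, its conjugating enzymes and ubiquitin ligases, 0 of 9 were called, with a median of 0.408. Isg15, the ubiquitin-like modifier, had 46 and 42 counts in knockdown libraries, against 19 and 24 counts in control libraries (2.347 and 2.166 against 0.9749 and 1.211 CPM). The groups did not overlap and were separated by more than either pair was spread. Its log2 fold change was 1.04 (SE 0.328, 95% interval 0.31 to 1.78), and the edgeR adjusted p was 0.1011, so it was not called. Uba7, the enzyme that activates Isg15, had 4.234 and 3.043 CPM with the knockdown, against 1.899 and 2.472 CPM in control libraries (log2 fold change 0.73, SE 0.301, adjusted p = 0.1971). Per length only the order of the group means turned round (1.565 TPM in knockdown and 1.78 TPM in control libraries). The groups overlapped, with 1.9 and 1.23 TPM in knockdown libraries and 1.97 and 1.59 TPM in control libraries. The effective length that RSEM estimated for Uba7 was 2723 and 3015 bases in the knockdown and 1211 and 2030 bases in the control libraries.

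Usp18, which removes Isg15 from proteins and restrains the receptor, was per length the most abundant of these enzymes. It had 75.5 and 61.43 CPM in knockdown libraries, against 43.77 and 57.01 CPM in control libraries (log2 fold change 0.44, SE 0.174, adjusted p = 0.1802). Without control 2 it was called (adjusted p = 0.04453). Herc6, the Isg15 ligase in mice, had a log2 fold change of 0.408 (edgeR adjusted p = 0.3448). Its knockdown libraries were both above both controls, as in 26.4% of all tested genes. The ubiquitin ligases Trim21, Trim25 and Trim30a lay between 0.097 and 0.207, and their groups overlapped. Rnf213, a giant ubiquitin ligase, had 106.0 and 88.4 CPM in knockdown libraries, against 91.18 and 124.2 CPM in control libraries, the lowest fold change of all tested members (-0.148).

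All 4 ADP-ribosyltransferases had both knockdown libraries above both control libraries, a pattern that 26.4% of all tested genes showed. Their median log2 fold change was 0.490, and Parp12 alone was called. Parp14 had 14.39 and 10.78 CPM in knockdown libraries, against 7.235 and 9.838 CPM in control libraries (log2 fold change 0.56, SE 0.235, adjusted p = 0.2083). Parp9 had 13.37 and 14.18 CPM with the knockdown, against 11.08 and 9.485 CPM in control libraries. Its partner Dtx3l, a ubiquitin ligase that forms a complex with Parp9, had 10.56 and 10.83 CPM in knockdown libraries, against 6.619 and 8.375 CPM in control libraries. These 3 genes lie within 140 kb of chromosome 16 (35832874 to 35972605), where Parp9 and Dtx3l overlap head to head on opposite strands, with fractional counts in all libraries for both. Their log2 fold changes were 0.559, 0.422 and 0.512, and 0 of the 3 passed (adjusted p from 0.1981 to 0.2439). Parp10 on chromosome 15, which overlaps Plec, had 26.22 and 24.09 CPM with the knockdown, against 24.07 and 23.71 CPM in control libraries, a difference under the spread within the knockdown pair.

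Of 2 tested nuclear proteins 0 were called. Sp100, a component of nuclear bodies, had 9.284 and 9.748 CPM in knockdown libraries, against 6.209 and 7.719 CPM in control libraries (log2 fold change 0.450, adjusted p = 0.2621). Helz2, a helicase that acts as a nuclear receptor coactivator, had 37.85 and 34.45 CPM in knockdown libraries and 27.86 and 43.04 CPM in control libraries. The control libraries of Helz2 thus lay on either side of both knockdown libraries. Ifi27, a small mitochondrial and nuclear membrane protein, had 26.68 and 21.66 CPM with the knockdown, against 20.32 and 16.09 CPM in control libraries (log2 fold change 0.409, adjusted p = 0.2571). Tor3a, a torsin ATPase, had 21.78 and 22.28 CPM in knockdown libraries, against 18.93 and 20.94 CPM in control libraries.

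**Figure D4:**
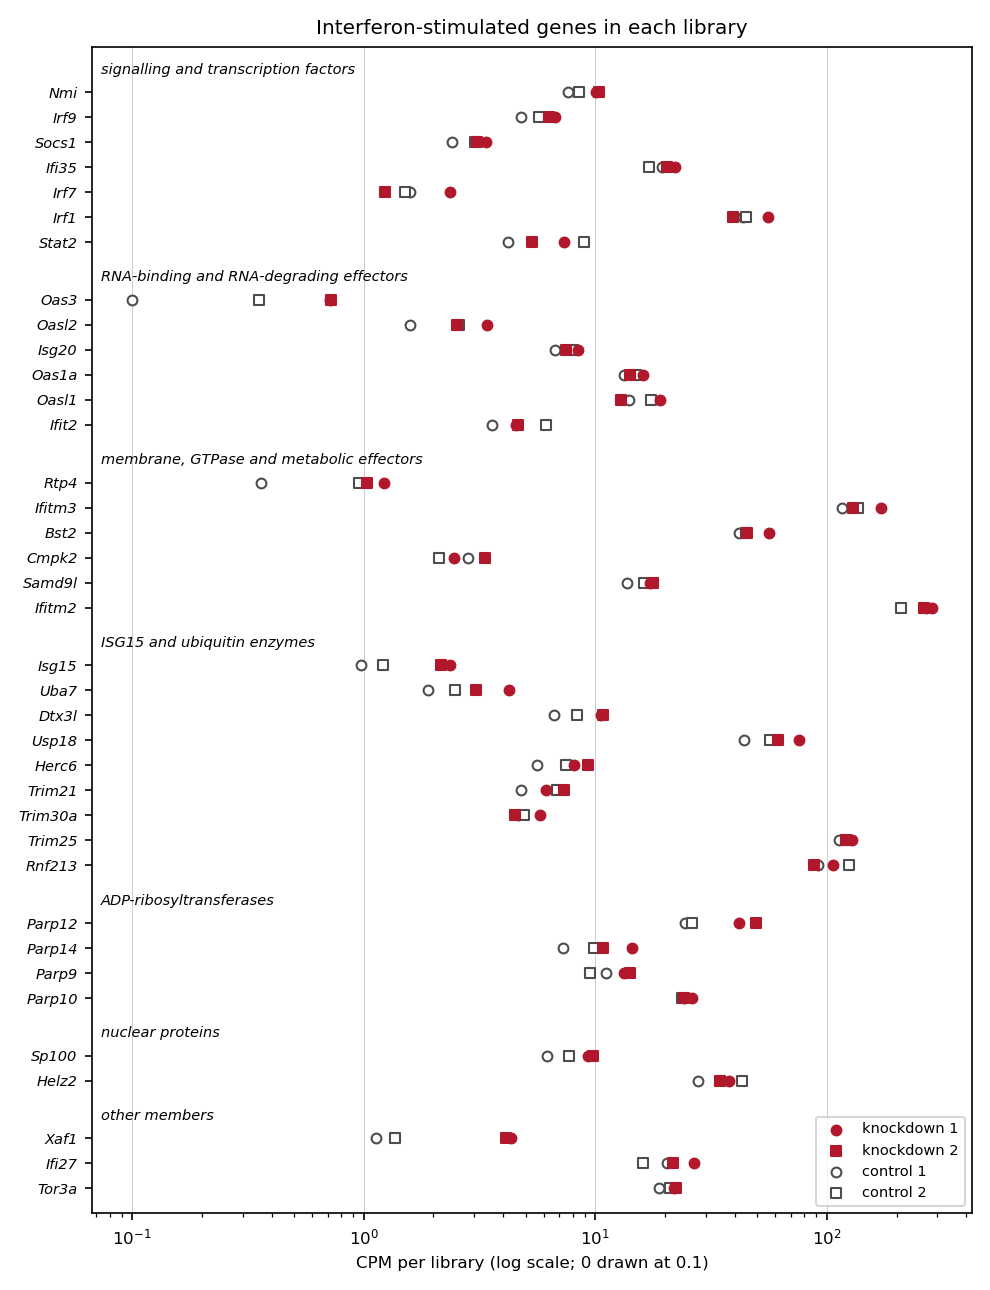
CPM of the 37 tested members in each library on a log axis, with knockdown libraries in filled red and control libraries in open grey symbols, grouped by role. Red and grey separate widely for Xaf1, Parp12, Isg15 and Oas3 (control 1 of Oas3 is 0, drawn at 0.1), and lie close together or mixed for most others.

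The 12 members under the filter on low counts were Ifit1, Ifit3, Ifit3b, Oas2, Ifitm1, Mx1, Mx2, Rsad2, Ifi44, Sp110, Phf11d and Epsti1. They held 23 and 31 counts in all in the knockdown libraries, against 15 and 12 counts in control libraries. In 11 of them no library had more than 5 counts, and no fold change is given for these. They include genes that respond most strongly to interferon in many cell types, such as Ifit1, Rsad2 (viperin) and the GTPase Mx1, of which most laboratory mouse strains carry a defective allele. Ifi44, a cytoplasmic protein induced by interferon, was the exception with 4 and 13 counts in knockdown libraries, against 1 and 1 counts in control libraries. Both knockdown libraries were above both control libraries, and they differed from each other. The ratio of its summed counts was 8.49 (exact 95% binomial interval 2.01 to 75.7, counting error only). The effective length that RSEM estimated for Ifi44 was 821 and 1056 bases in the knockdown and 2650 and 2664 bases in the control libraries. The ratio of counts does not take this length into account. Without knockdown 1 Ifi44 passed the filter, with a log2 fold change of 3.56. It passed there only through the 13 counts of knockdown 2, the library on which that value rests. That fit therefore adds no support to the counts above.

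Ordered by their length-corrected level in control cells, 16 members had 10 TPM or more, 20 had 1 to 10 TPM and 13 had less than 1 TPM. The highest were Ifitm2 (853.9 ± 53.03 TPM in knockdown and 756.2 ± 129.5 TPM in control cells), Ifitm3, Bst2, Usp18 and Ifi27 (51.61 ± 9.716 TPM in knockdown and 38.45 ± 5.445 TPM in control cells, SD, n = 2 each). Usp18 and Ifi27 did not differ in level beyond their spread. Xaf1 and Isg15 stood at ranks 22 and 24 of the 49. Irf7 overlaps Phrf1 and Rtp4 overlaps Masp1 on the other strand, and Irf9 overlaps Rnf31 on its own, so that their values may include reads of these neighbours. Counts and TPM gave opposite directions in 6 tested members, Stat2, Samd9l, Uba7, Herc6, Parp10 and Helz2, whose effective lengths were estimated separately in each library.

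Of the 35 tested members that were not called, 28 had a 95% interval whose upper end lay under 1 on the log2 scale, that is, under a doubling. The other 7 were Irf7, Oas3, Oasl2, Rtp4, Isg15, Uba7 and Parp14, in which a doubling was within the interval. In 6 of the 35 the interval excluded 0 before adjustment. A missed threshold does not show that these genes had the same level in both groups.

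**Figure D5:**
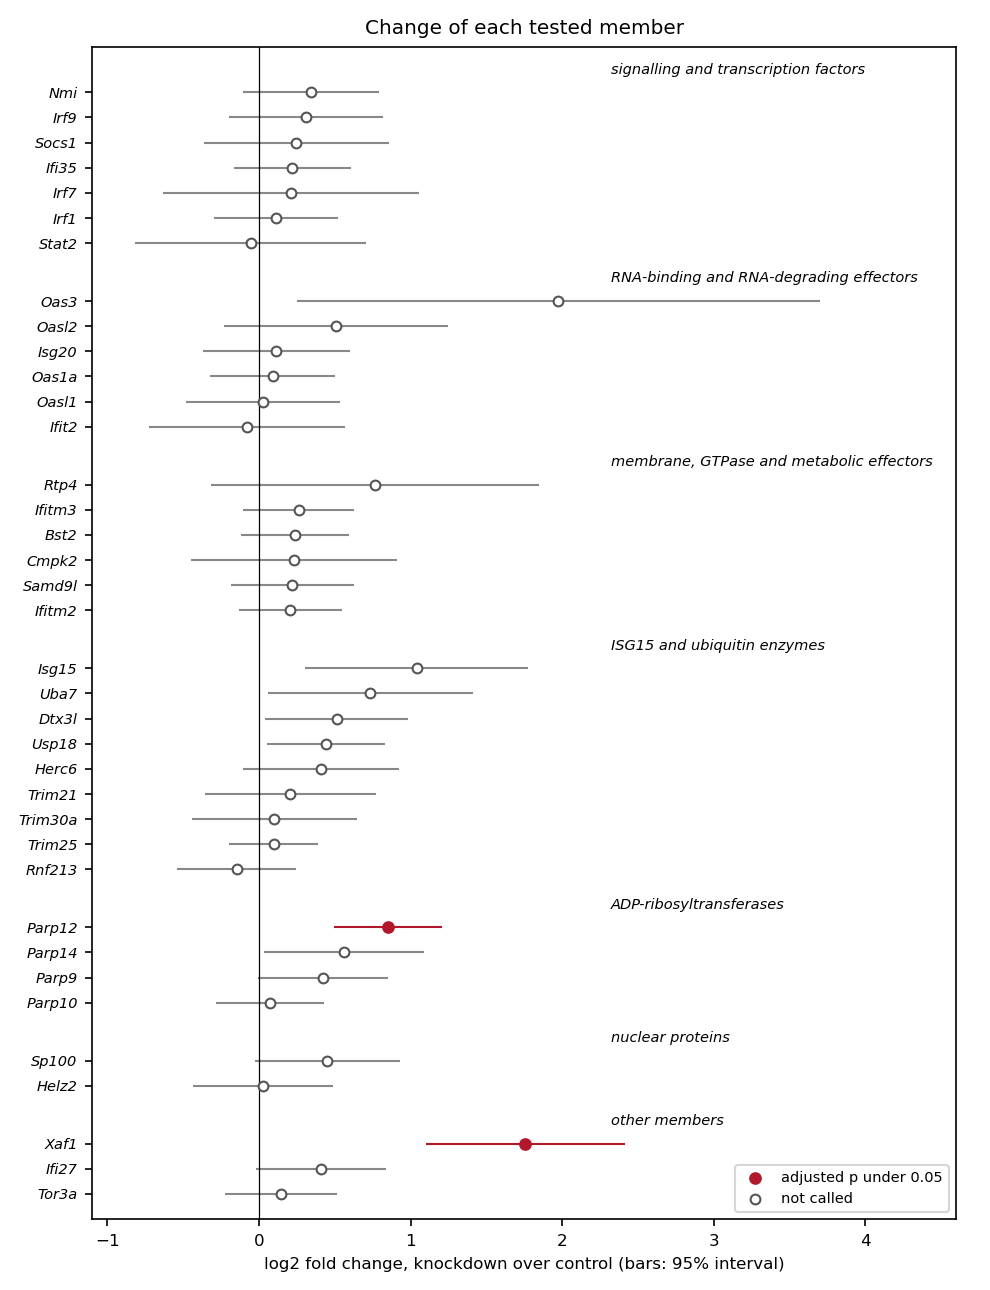
Log2 fold change, knockdown over control, of the 37 tested members with 95% intervals, grouped by role. Filled red points mark Xaf1 (1.76) and Parp12 (0.85), which were called, and open points the 35 others, of which Rnf213, Ifit2 and Stat2 lie below 0.

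The genes that make, receive and restrain the interferon signal were described from a separate list. Of 39 other pathway genes 29 were tested, with 0 higher, 1 lower and 28 not called and a median of 0.057 (18 above 0), so 3.45% were called, against 5.96% of all genes. Of 10 interferon ligands 8 were not detectable at this depth. Ifnb1, Ifna1, Ifna2, Ifna4, Ifna5, Ifng, Ifnl2 and Ifnl3 had 0 counts in all 4 libraries, which allows up to 0.154 CPM in a library (3 counts). Ifne and Ifnk had 1 and 2 counts, all in knockdown 1. All 6 receptor chains were present and 0 were called (median 0.123). Ifnar1 had 67.9 and 64.78 CPM in knockdown libraries, against 70.3 and 75.43 CPM in control libraries, and Ifnar2 had 32.24 and 29.3 CPM with the knockdown, against 27.4 and 30.12 CPM in control libraries.

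Jak2, the kinase of the interferon gamma receptor and of many cytokine receptors, was the pathway gene that fell. Jak2 had 117.7 and 116.3 CPM in knockdown libraries, against 201.2 and 238.9 CPM in control libraries (log2 fold change -0.91, SE 0.139, edgeR adjusted p = 0.005634). The groups were far apart compared with either pair, and the call ended only without a filter on low counts among the alternatives run. The kinases of the type I receptor, Jak1 and Tyk2, had log2 fold changes of 0.028 and -0.017. Of 8 genes that carry the inducing signal 0 were called. They include the adaptor Mavs at 0.401 (adjusted p = 0.1251) and the ligase Traf6 at -0.577 (adjusted p = 0.1815), which was called lower when either knockdown 2 (adjusted p = 0.004174) or control 2 (adjusted p = 0.01697) was left out. Of 10 genes of restraint and Isg15 transfer 0 were called. The conjugating enzyme Ube2l6, which passes Isg15 on, had 16.53 and 15.63 CPM in knockdown libraries, against 11.85 and 9.384 CPM in control libraries (log2 fold change 0.599, adjusted p = 0.1132), and was called without control 1. Socs3 had a log2 fold change of 0.393 and was called without control 2. Leaving out libraries thus gave 1 to 3 called pathway genes, with Jak2 among them each time.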

How the data were processed

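Per the labels' protocols, RNA of the 2 knockdown and 2 control libraries was isolated with an RNeasy Plus Mini kit. A NEBNext Ultra Directional kit served for library preparation. The submitters' processing notes list STAR, RSEM, FastQC and DESeq2, with GRCm38 and mm10 as builds. The sources used here give no versions, annotation release or strand setting in counting, so a gene and its antisense partner may not be separated. The deposited expected counts are RSEM estimates, per the file headers, with shared reads divided among features, and the deposited TPM values are scaled by effective length.

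Before testing, each expected count was rounded to an integer. Library sizes were summed over all 115821 rows. A count over 0.005 from an integer was called fractional. The fit over Ensembl genes used edgeR 4.0.16 (R 4.3.3) with its quasi-likelihood test, TMM scaling, filterByExpr and the group as sole term, and p-values were adjusted by Benjamini-Hochberg over 12821 genes. SEs came from the F statistic, and intervals used 2 residual plus 7.52 prior degrees of freedom. The smallest p of an exact permutation test with 2 libraries a group is 0.333. Replicate libraries were not the same library deposited again, since their chi-square per gene was 23.8 in the knockdown and 26.1 in the control group. On 3 simulated sets over the 12821 genes, with 200 genes changed in each, the fit recovered 77% of 2-fold and 94.1% of 4-fold changes. Of its calls 2.65% were false. The simulated spread followed a gene's level alone, without the further scatter between genes. These shares are means over all levels, so they do not hold for members of few counts. Coordinates came from GENCODE M21 and promoters from RefSeq (GRCm38.p6).

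The members and lists were chosen with earlier results of these data known, so no set test and no adjustment over the list alone was made. Every member is named, with full values for the called members and for the 5 uncalled ones with the largest absolute change. Of the others, those given per library were picked for their roles after their values were seen. One gene of the pathway list enters its counts and medians, and its own values are not reported here. Alternatives were DESeq2 1.42.0 (size factors, Wald test), 2 other filters, the legacy edgeR fit, limma 3.58.1 on log2(TPM + 1) and log2(TPM + 0.1), a block for the replicate number, the crossed block (chosen after seeing the data) and fits without each library in turn, which assume that the lone library varies like the other group.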

Additional observations from a re-analysis of the deposited data

How the results depend on the processing

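Both called members kept their direction under every alternative tried. Without a filter on low counts edgeR called 0 genes of any kind (3379 at an unadjusted p under 0.05), so 0 members and 0 pathway genes. Limma called 334 genes on log2(TPM + 1) and 327 on log2(TPM + 0.1), with 1 member, Xaf1, in each. The calls with DESeq2's size factors, its Wald test, the filter of 1 CPM and the legacy fit were within 1.5 times the main counts, each with 2 members. Leaving out 1 library gave 740 to 1677 called genes (1677 without control 1), 2 to 4 members (4 without control 2), 1 to 3 pathway genes and a median log2 fold change of the members from 0.206 to 0.374.

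The replicate block gave 862 called genes and 2 members. The numbers 1 and 2 are not said to mark a shared culture or day. Same-numbered libraries had only a weak tendency to deviate in opposite directions over the tested genes (correlation -0.183). With the crossed replicate block 2339 genes, 6 members and 6 pathway genes were called.

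Uba7 turned to -0.125 on log2(TPM + 1) and -0.198 on log2(TPM + 0.1), where its estimated effective length enters. Among the 9 genes with a full test, 104 of 116 alternative values stayed on their side of the threshold in the same direction. Among the 30 other tested members 366 of 390 did, 2 became called and 22 changed sign without a call. With 2 libraries a group, members of a few counts have wide intervals.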
